A study of Mus musculus with 36 samples.

Results

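Gata5, Gata6, Hand1, Mef2a, Mef2b, Mef2d, Tbx2, Tbx3 and Tbx20 are resident mouse relatives of Gata4, Hand2, Mef2c and Tbx5, the 4 factors that were transduced. They were taken by gene symbol, from the members of the GATA, HAND, MEF2 and TBX families that were not transduced. The rule itself uses no measured value, but it was written down with earlier results of these data known. Further relatives from these families, such as Tbx4 and Mga, are counted in a separate list below. The 9 genes make up 9 of the 50509 gene symbols in both expression tables. The study asked whether 1% dimethyl sulfoxide (DMSO, a solvent) changes the forced conversion of fibroblasts towards cardiomyocytes. The cells were mouse embryonic fibroblasts from embryonic days 12.5 and 13.5, of a strain in which the promoter of Myh6 (alpha myosin heavy chain, a cardiomyocyte protein) drives mCherry. Cells either carried the 4 factors together, called GHMT after their initials, or were left uninfected. In each arm they received 1% DMSO or no addition, and RNA was collected at days 2, 7 and 21. This gave GHMT DMSO, GHMT untreated, uninfected DMSO and uninfected untreated groups at every time, 12 groups of 3 libraries and 36 libraries in all. The medium of every group was based on StemPro34 and held FGF2, VEGF and FGF10, so the uninfected cells received these growth factors too. The labels do not say whether replicates were separate cultures, so each p-value below is set against a spread among libraries that could be purely technical.

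GATA factors are zinc-finger proteins that bind GATA motifs. HAND factors are basic helix-loop-helix proteins that pair with E proteins on E-boxes. MEF2 factors are MADS-box proteins that read an AT-rich site and are held in check by class IIa histone deacetylases, and T-box factors bind through a shared domain. Within each family the paralogs bind similar DNA, and in the embryonic heart several act beside the transduced factor. Gata6 and Gata5 accompany Gata4 in heart and endoderm, and Hand1 is the left ventricular counterpart of Hand2. Mef2a and Mef2d are broadly expressed and present in the postnatal heart, whereas Mef2b is best known from B lymphocytes. Tbx20 is needed for chamber growth and for adult cardiomyocytes. Tbx2 and Tbx3 are repressors that keep the atrioventricular canal and the conduction system from becoming chamber muscle. A level in TPM (transcripts per 1e6 transcripts, the unit of the deposited tables) is already scaled by transcript length, so levels of different genes can be set side by side.

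The promoters of the 3 members on which the comparisons below turn are shown from RefSeq, GRCm38.p6, each 250 bases before the annotated start and 20 from it, read on the gene's own strand. The Tbx20 window lies at chr9:24774284-24774553 on the minus strand, the Mef2d window at chr3:88142122-88142391 on the plus strand and the Mef2a window at chr7:67372839-67373108 on the minus strand. Capitals mark the one match to a MEF2 site.

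Tbx20: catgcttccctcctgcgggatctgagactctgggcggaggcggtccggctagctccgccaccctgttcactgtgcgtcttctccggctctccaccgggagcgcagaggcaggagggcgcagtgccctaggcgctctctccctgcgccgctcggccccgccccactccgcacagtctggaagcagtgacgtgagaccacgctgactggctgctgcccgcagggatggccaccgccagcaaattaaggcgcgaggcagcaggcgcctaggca

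Mef2d: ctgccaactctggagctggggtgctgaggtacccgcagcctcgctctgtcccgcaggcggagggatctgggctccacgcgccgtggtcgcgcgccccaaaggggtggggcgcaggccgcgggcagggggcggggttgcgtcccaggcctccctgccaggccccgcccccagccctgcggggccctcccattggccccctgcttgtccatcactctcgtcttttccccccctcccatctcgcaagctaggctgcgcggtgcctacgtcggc

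Mef2a: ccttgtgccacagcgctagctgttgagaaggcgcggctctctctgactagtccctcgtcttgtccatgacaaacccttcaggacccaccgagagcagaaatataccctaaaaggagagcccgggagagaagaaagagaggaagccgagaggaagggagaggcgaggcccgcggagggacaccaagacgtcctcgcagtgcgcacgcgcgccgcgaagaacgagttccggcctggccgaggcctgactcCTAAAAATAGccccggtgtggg

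Searching on both strands covered 4 motifs. The MEF2 site, read as CTA and TAG with 4 bases of A or T between them, occurred in 0.53% of the 32851 windows of this length, and in Mef2a as CTAAAAATAG with its first base at position -2, across the annotated start. The GATA site GATAAG occurred in 6.97% of windows, the T-box core AGGTGT in 12.6% and the E-box CANNTG in 68.9%, and no 2 of these motifs contain one another. None of the 4 occurred in the Tbx20 or the Mef2d window. Of the other members, only Gata5 and Mef2b had a window in the table, and each held 1 E-box, CACGTG at position -138 in Gata5 and CATCTG at position -28 in Mef2b. The Tbx20, Mef2d and Mef2a windows held 68.9%, 73.3% and 61.1% G and C, against a median of 52.6% over all windows. A match describes the sequence only.

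Each of the 4 factors stood above the uninfected libraries in 6 of 6 pairs of groups of the same treatment and time, by 64.0 to 156 times for Gata4, 30.4 to 58.8 times for Hand2, 48.2 to 107 times for Mef2c and 17.5 to 49.6 times for Tbx5, on group means. These values do not separate vector from endogenous transcripts. Between 15776 and 18486 genes reached 1 TPM per library. The tables hold no read counts, so the depth behind a value is unknown and no counting interval can be given. The 3 libraries that stood apart were GHMT DMSO day 21 replicate 3, GHMT DMSO day 7 replicate 1 and uninfected untreated day 21 replicate 1. Each had the lowest median correlation with its own group among that group's libraries, at 0.919, 0.937 and 0.949. A cutoff on this correlation would not pick these 3 alone. GHMT DMSO day 21 replicates 1 and 2, at 0.926 and 0.932, lay below the second of them. Every count of calls below was also computed without these 3. For the 9 genes this added 1 call, Mef2d between days 2 and 7 in GHMT untreated cells, and removed none, whereas counts over all genes and over the lists of partners moved, and the larger of these shifts are given beside them. Fibroblast marker genes (10 genes, among them Col1a1 and Pdgfra) summed to between 5324 and 8859 TPM in GHMT libraries and to 8191 TPM or more in uninfected libraries, and 10 cardiomyocyte markers to between 477 and 8562 TPM in GHMT libraries against 6.23 to 13.8 TPM in uninfected libraries. In bulk RNA, fewer cells of a type and less RNA per cell cannot be told apart.

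Tbx20 was the one resident paralog that was high in GHMT cells at the later times and near absent in uninfected cells. In the GHMT arm it was above 1 TPM in all 18 libraries and reached 62.8 TPM. In uninfected libraries it lay between 0.076 and 0.298 TPM, with a median of 0.151 TPM, and never reached the 1 TPM used as the floor for testing. Its Ensembl identifier in the files is ENSMUSG00000031965.15.

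At day 2 Tbx20 had 1.23, 1.75 and 2.77 TPM in GHMT DMSO cells, against 1.27, 2.47 and 3.08 TPM in GHMT untreated cells. At day 7 it had 24.1, 42.3 and 43.2 TPM in GHMT DMSO cells, against 17.95, 42.6 and 28.9 TPM in GHMT untreated cells. At day 21 it had 44.2, 55.9 and 62.8 TPM in GHMT DMSO cells, against 52.4, 56.0 and 61.2 TPM in GHMT untreated cells. The DMSO and untreated libraries overlapped at every time, while all libraries of day 7 lay above all libraries of day 2 and, within a treatment, all libraries of day 21 above those of day 7. Among all genes tested, 29.0% with DMSO and 21.6% without lay above at day 7 relative to day 2 with no overlap, 4.85% and 10.8% at day 21 relative to day 7, and 26.8% and 32.5% at day 21 relative to day 2. The 6 group means thus fell into an early low pair and 2 higher pairs, in which the neighbours of the same day were not separated.

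On the log2(TPM + 1) scale used for all tests here, which understates changes of low genes, Tbx20 rose between day 2 and day 7 by 3.67 in GHMT DMSO cells and by 3.20 ± 0.31 (SE; 95% interval 2.53 to 3.86) in GHMT untreated cells, with limma adjusted p of 1.55e-05 and 0.000174. Between day 2 and day 21 it rose by 4.27 (95% interval 3.60 to 4.93, adjusted p = 1.17e-06) with DMSO and by 4.17 (3.51 to 4.84, adjusted p = 2.63e-06) without. In TPM these means were 28.4 and 24.9 times those of day 2. From day 7 to day 21 the differences were 0.59 (-0.07 to 1.26, adjusted p = 0.335) with DMSO and 0.98 (0.31 to 1.64, adjusted p = 0.266) without, and neither passed the test. With the replicate number as a block the untreated step reached an adjusted p of 0.041, in a fit that called 0.577% of genes.

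No difference of Tbx20 with DMSO was found beyond the spread of the libraries. The difference of GHMT DMSO from GHMT untreated cells was -0.16 (95% interval -0.83 to 0.51) at day 2, 0.32 (-0.35 to 0.98) at day 7 and -0.07 (-0.73 to 0.60) at day 21. These intervals are wide, and a change of 0.5 in log2 upwards lies inside each. Over the same libraries, the 10 cardiomyocyte markers summed to between 3900 and 5924 TPM in GHMT DMSO cells against 1370 to 2567 TPM in GHMT untreated cells at day 7, and to between 5486 and 8562 TPM against 2878 to 3409 TPM at day 21, with no overlap at either time. Of those markers, 3 of 10 passed the test at day 7 and 5 of 10 at day 21, all higher with DMSO. Among all genes tested, 0.708% were called at day 7 and 4.59% at day 21. Without the 3 libraries that stood apart these shares were 0.143% and 1.52%. Myh6 at days 7 and 21 and Actn2 at day 21 were then still called, and Nppa at day 7 was not (limma adjusted p = 0.095).

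**Figure D1:**
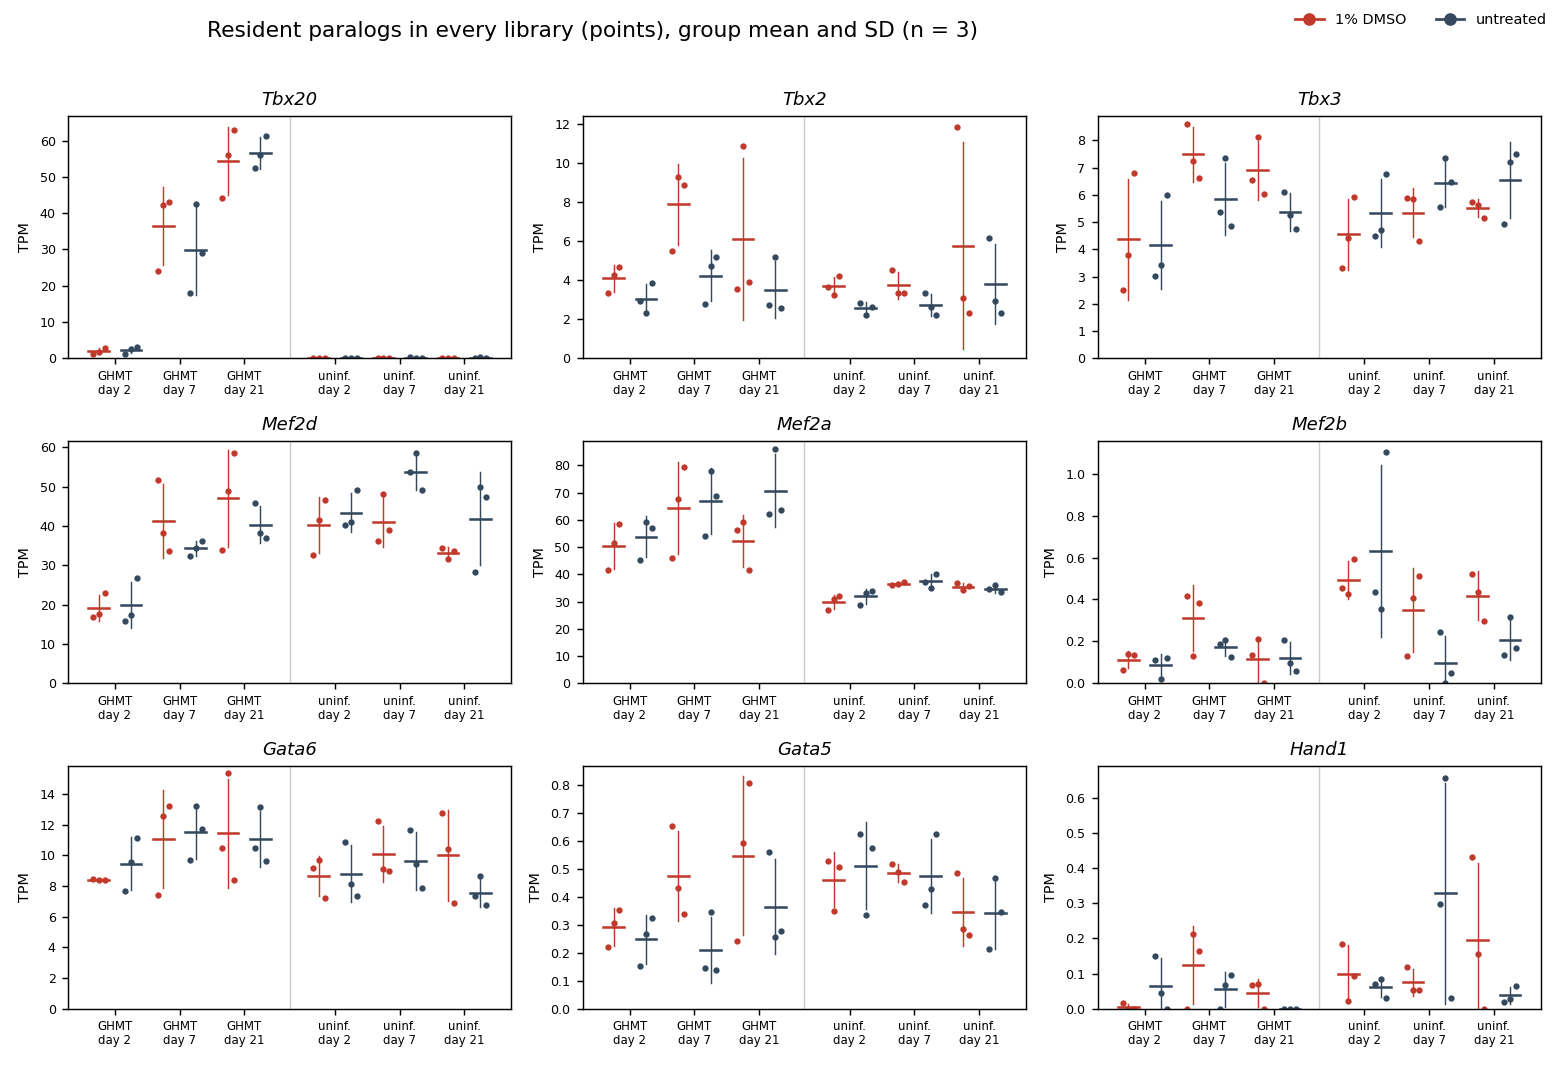
TPM of each resident paralog (vertical axes, each from 0) in the 36 libraries, by arm and day, with DMSO red and untreated dark. Points are libraries, horizontal bars means and vertical bars SD (n = 3). Tbx20 reached 62.8 TPM in GHMT libraries and at most 0.298 TPM in uninfected ones, and Mef2a lay higher in every GHMT group than in its uninfected counterpart.

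Mef2d, one of the main resident MEF2 genes of these fibroblasts, showed the other time course in the GHMT arm. At day 2 it had 16.9, 17.5 and 22.9 TPM in GHMT DMSO cells, against 15.9, 17.5 and 26.7 TPM in GHMT untreated cells. At day 7 it had 51.7, 38.2 and 33.6 TPM in GHMT DMSO cells, against 32.5, 34.3 and 36.3 TPM in GHMT untreated cells. The day 7 libraries all lay above those of day 2, with DMSO and without. At day 21 it had 34.0, 48.8 and 58.4 TPM in GHMT DMSO cells, against 45.8, 38.2 and 37.1 TPM in GHMT untreated cells. All libraries of day 21 lay above those of day 2 in both treatments, and those of day 21 overlapped those of day 7 with DMSO and lay above them without. Such separation was common. Among all genes tested, 29.0% with DMSO and 21.6% without lay above in this way at day 7 relative to day 2. The shares were 26.8% and 32.5% at day 21 relative to day 2, and 10.8% at day 21 relative to day 7 without DMSO.

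Between day 2 and day 21 Mef2d rose by 1.23 in log2 (95% interval 0.76 to 1.71, adjusted p = 0.000826) in GHMT DMSO cells and by 1.00 (0.53 to 1.47, adjusted p = 0.00492) in GHMT untreated cells, which in TPM was 2.46 and 2.01 times the day 2 mean. By day 7 it had risen by 1.06 (0.59 to 1.53, adjusted p = 0.00599) with DMSO. Without DMSO the day 7 difference was 0.78 (0.31 to 1.25, adjusted p = 0.0559), just short of the threshold, and its adjusted p ran between 0.0202 and 0.219 when single libraries were left out, the lowest without GHMT untreated day 2 replicate 3. Relative to the median of all genes, which was 0.09 with DMSO and 0.20 without in the day 21 comparison, the increase was smaller, and after scaling libraries by median ratio, which lowered that median by 0.17 and 0.23, Mef2d still passed the test at 1.02 and 0.72.

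In uninfected cells Mef2d started high and did not pass the test in any comparison of times. Its means were 40.2, 41.0 and 33.2 TPM at days 2, 7 and 21 with DMSO and 43.4, 53.8 and 41.8 TPM without. GHMT libraries lay below uninfected ones with no overlap in 3 of 6 pairs of groups, with DMSO at day 2, where 22.2% of genes did so, untreated at day 2 (25.7% of genes) and untreated at day 7 (18.4% of genes). The arms were deposited as 2 tables, and levels across arms are described here and not tested. The ratio of group means, GHMT over uninfected, ran between 0.46 and 1.42.

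The change from day 2 to day 21 was then compared between arms in 1 fit over the 36 libraries, a comparison added after the data had been seen. Mef2d differed by 1.49 ± 0.29 (SE) in log2 with DMSO (adjusted p = 0.000919) and by 1.09 ± 0.29 without (adjusted p = 0.0164), GHMT minus uninfected. The untreated call rested on single libraries, since leaving out GHMT untreated day 2 replicate 1 gave 0.95 with an adjusted p of 0.0577, and leaving out uninfected untreated day 21 replicate 1, one of the 3 that stood apart, gave 0.84 with an adjusted p of 0.0652. Tbx20 was below the floor in all uninfected libraries and would have entered that fit only through its GHMT libraries, so its change was not tested between arms. Of the 5 members tested in both arms, the other 4 did not pass. Both Mef2d calls were larger changes in the GHMT arm, in a background in which 23.7% of genes were called with DMSO, 15.5% in that direction, and 14.1% without, 10.6% in that direction.

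Counted over the 6 members tested in GHMT cells, 2 of 6 rose between day 2 and day 21, Tbx20 and Mef2d, both with DMSO, where 37.6% of all 20618 genes were called in either direction and 21.4% as higher, and without, where the shares were 24.6% and 17.9%. Between day 2 and day 7, 2 of 6 rose with DMSO (17.4% of genes called, 13.2% higher) and 1 of 6 without (4.78% called, 3.3% higher). Between day 7 and day 21 none of the 6 passed, with 0.577% of genes called with DMSO and 0.31% without. Without the 3 libraries that stood apart, the share called with DMSO was 11.4% between days 2 and 7 and 0.0296% between days 7 and 21. With all libraries kept, there were 7 calls in 36 pairs of member and comparison, and 12 pairs had an unadjusted p under 0.05. The median over the tested members, day 21 minus day 2, was 0.49 with DMSO and 0.36 without, beside 0.09 and 0.20 over all genes tested. Gata5, Hand1 and Mef2b were below the floor and were not tested.

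In uninfected cells none of the 5 tested members passed limma's test in any of the 6 comparisons of times, in which 19979 genes were tested. With DMSO, 2.11% of genes were called between days 2 and 7, 1.5% between days 7 and 21 and 15.1% between days 2 and 21, and without DMSO 2.14%, 1.15% and 11.0%. In 3 of those 30 pairs, all of them Mef2a, the unadjusted p was under 0.05. Mef2a averaged 36.6 TPM at day 7 and 29.9 TPM at day 2 with DMSO, a difference of 0.28 (adjusted p = 0.103), and 35.5 TPM at day 21, a difference of 0.24 from day 2 (adjusted p = 0.0644). Without DMSO the day 7 difference from day 2 was 0.23 (adjusted p = 0.19). Under other scalings some of these passed. The day 7 difference with DMSO became 0.31 (adjusted p = 0.0204) and the day 21 difference 0.32 (adjusted p = 0.00397) when libraries were scaled to the total of protein-coding genes, and the day 21 difference became 0.36 (adjusted p = 0.0118) with median ratio scaling.

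**Figure D2:**
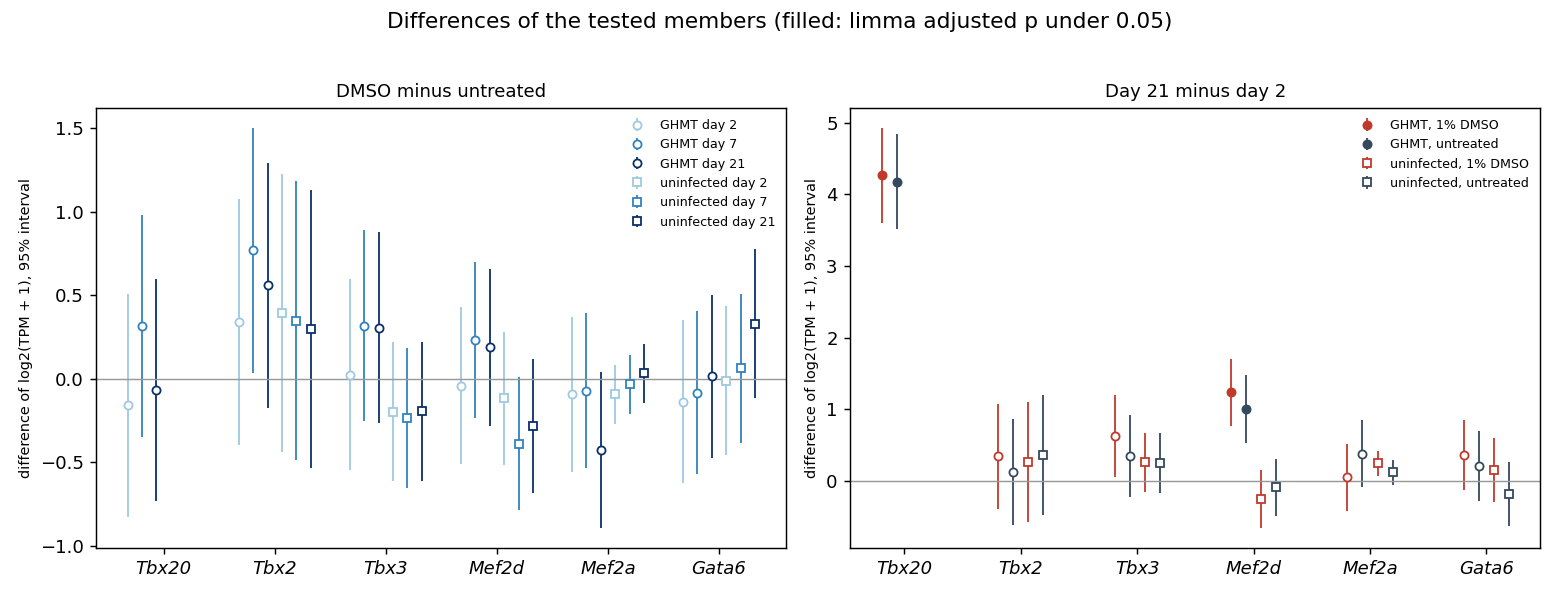
Difference of log2(TPM + 1) with its 95% interval (vertical axes) for the tested members, DMSO minus untreated at each day on the left and day 21 minus day 2 on the right. Circles are GHMT, squares uninfected, and filled symbols passed limma's adjusted p of 0.05. Filled symbols appear on the right for Tbx20 at 4.27 and 4.17 and for Mef2d at 1.23 and 1.00, and none on the left.

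Mef2a was the most abundant of the 9 genes in the GHMT arm by its median. It ran from 41.5 to 86.1 TPM with a median of 58.9 TPM over the 18 GHMT libraries, against 26.9 to 40.3 TPM with a median of 34.8 TPM over the 18 uninfected libraries. In each of the 6 pairs of groups all 3 GHMT libraries lay above all 3 uninfected libraries, by 1.48 to 2.04 times on the means, as did 7.85% of all genes in all 6 pairs. Within the GHMT arm its level did not pass the test between any 2 times. At day 21 Mef2a had 56.3, 59.3 and 41.5 TPM in GHMT DMSO cells, against 62.3, 86.1 and 63.8 TPM in GHMT untreated cells. The DMSO libraries lay below the untreated ones with no overlap, as did 13.2% of genes, but the difference of -0.43 (95% interval -0.89 to 0.04, adjusted p = 0.244) did not pass.

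Tbx2 was low in both arms, with medians of 4.09 TPM in GHMT and 3.16 TPM in uninfected libraries. At day 7 it had 5.50, 9.28 and 8.87 TPM in GHMT DMSO cells, against 2.76, 4.72 and 5.21 TPM in GHMT untreated cells. These groups did not overlap, as for 15.0% of genes in that direction. The difference was 0.77 (95% interval 0.03 to 1.50), with an unadjusted p of 0.042 and an adjusted p of 0.30, so Tbx2 was not called. With a block for the replicate number within each day, a fit chosen after the data had been seen and one in which 5.34% of genes were called, the same difference had an SE of 0.16 and an adjusted p of 0.0341.

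In the other 5 comparisons of DMSO with no addition the Tbx2 difference was also above 0 and did not pass a test, and in uninfected cells at day 21 its sign rested on 1 library. At day 21 it had 3.54, 10.9 and 3.92 TPM in GHMT DMSO cells, against 2.73, 5.19 and 2.59 TPM in GHMT untreated cells, with an overlap. At day 2 it had 3.35, 4.26 and 4.69 TPM in GHMT DMSO cells, against 2.94, 2.33 and 3.87 TPM in GHMT untreated cells, again with an overlap. In uninfected cells at day 2 it had 3.63, 3.25 and 4.19 TPM with DMSO, against 2.81, 2.23 and 2.65 TPM untreated, with no overlap, as for 11.1% of genes in that direction, and a difference of 0.40. At day 21 uninfected DMSO replicate 1 had 11.9 TPM and uninfected untreated replicate 1 had 6.13 TPM, both above the 2.34 to 3.08 TPM of the other libraries of that day. The difference there was 0.30, and without uninfected DMSO day 21 replicate 1 it was -0.30. Set side by side by replicate number, Tbx2 was higher in the DMSO library in 9 of 9 GHMT and 8 of 9 uninfected cases. Among the other members this count ran from 2 (Mef2a) to 8 (Gata5) of 9 in GHMT cells. In uninfected cells it ran from 2 (Mef2d and Tbx3) to 7 (Mef2b) of 9. The count was not made over all genes, so how common such a pattern is remains unknown. The limma test without a block does not use the replicate numbers as pairs. Across arms, GHMT lay above uninfected cells with no overlap in 1 of 6 pairs, DMSO at day 7, as did 33.5% of genes.

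Tbx3, the second repressor, ran from 2.51 to 8.59 TPM over GHMT and from 3.30 to 7.48 TPM over uninfected libraries. With DMSO in the GHMT arm it had 2.51, 3.79 and 6.82 TPM at day 2, 8.59, 7.25 and 6.61 TPM at day 7 and 6.53, 8.12 and 6.04 TPM at day 21. Of the day 2 libraries, only replicate 3 overlapped the later ones. The differences from day 2 were 0.73 at day 7 (adjusted p = 0.072) and 0.63 at day 21 (adjusted p = 0.078) and did not pass, whereas without that library, GHMT DMSO day 2 replicate 3, they were 1.04 (adjusted p = 0.0129) and 0.94 (adjusted p = 0.0112). Across arms, GHMT DMSO libraries lay above uninfected DMSO ones with no overlap at day 7, and at day 21, where 26.1% of genes did so.

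Gata6 was the most even of the tested members across the 12 groups, with group means between 7.57 and 11.5 TPM. It ran from 7.39 to 15.4 TPM with a median of 10.1 TPM in GHMT libraries, and from 6.73 to 12.7 TPM with a median of 9.03 TPM in uninfected libraries. The ratio of group means, GHMT over uninfected, ran between 0.97 and 1.46, and the libraries of both arms separated in 1 of 6 pairs, untreated at day 21, where GHMT lay above, as did 32.8% of genes. No comparison of DMSO or of times passed the test for Gata6.

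Gata5, Hand1 and Mef2b remained near the bottom of the range. Gata5 ran from 0.137 to 0.806 TPM in GHMT and from 0.212 to 0.626 TPM in uninfected libraries. Hand1 was listed at 0 in 9 of 18 GHMT libraries and in 1 of 18 uninfected libraries, and its highest values were 0.211 and 0.658 TPM. Mef2b had medians of 0.132 TPM in GHMT and 0.382 TPM in uninfected libraries, and a single uninfected library reached 1 TPM. Where the arms did not overlap, GHMT was the lower one, in 2 of 6 pairs for Gata5, 2 for Hand1 and 3 for Mef2b. Over all genes, the share lying below in the same way was 22.2%, 12.1% and 9.58% at days 2, 7 and 21 with DMSO and 25.7%, 18.4% and 9.07% without. Values of this size give no measure of how far a gene differed.

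Across the DMSO comparisons, none of the 6 members tested in GHMT cells was called at days 2, 7 or 21, when 0.00485%, 0.708% and 4.59% of genes were. Without the 3 libraries that stood apart those shares were 0.00493%, 0.143% and 1.52%, and again no member was called. None of the 5 tested in uninfected cells was called either, when 0.285%, 1.69% and 2.36% of genes were, or 0.597%, 2.97% and 3.62% without those libraries. In these 33 pairs of member and comparison the log2 differences ran between -0.43 and 0.77 and the lowest adjusted p of limma's test was 0.244. One pair, Tbx2 in GHMT cells at day 7, had an unadjusted p under 0.05. These tests did not match libraries by replicate number. With a block for the replicate number within each day, Tbx2 in GHMT cells at day 7 was called (limma adjusted p = 0.0341), as were 5.34% of genes. In uninfected cells at day 7 Mef2d had 36.1, 48.1 and 38.9 TPM with DMSO, against 53.8, 58.4 and 49.1 TPM untreated, below with no overlap as for 14.2% of genes, at a difference of -0.39 (95% interval -0.79 to 0.01, adjusted p = 0.331). Whether the effect of DMSO differed between arms was tested directly. None of 15 pairs passed for the 5 members tested in both arms, with 0.00898%, 0.117% and 0.588% of genes called at days 2, 7 and 21, and the one unadjusted p under 0.05 was Mef2d at day 7, with a difference of 0.62 in log2 (adjusted p = 0.60).

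Resident genes held most of the GATA and MEF2 transcripts in uninfected cells and a small part of them in GHMT cells. In uninfected libraries Gata6 alone made up a median of 81.6% of the summed Gata4, Gata5 and Gata6 TPM, where each family's sum is taken over the transduced gene and its relatives among the 9, and Mef2d and Mef2a made up 47.1% and 37.1% of the MEF2 sum, with Mef2c at 16.3%. Resident genes together held a median of 6.30% (2.22 to 10.7%) of the GATA sum in GHMT libraries against 85.4% (73.9 to 92.9%) in uninfected libraries. They held 8.29% (3.55 to 16.5%) against 83.7% (81.2 to 88.0%) of the MEF2 sum.

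In GHMT cells the resident share of the T-box sum was the largest of the 4 families at days 7 and 21, on group means, and not at day 2. This sum covers Tbx2, Tbx3, Tbx5 and Tbx20 alone, and its shares hold for these genes only. Mga, a T-box gene outside it, averaged 58.6 TPM at day 2 and 38.9 TPM at day 21 in uninfected untreated cells. The sum averaged 15.0 and 18.1 TPM there. Resident T-box genes held a median of 16.1% (5.62 to 34.2%) of their family's sum in GHMT libraries against 55.1% (50.4 to 75.8%) in uninfected libraries, and Hand1 held 0.00667% (0 to 0.128%) against 1.69% (0 to 11.5%) of the HAND sum. The mean T-box share was 6.95%, 13.1% and 20.1% at days 2, 7 and 21 in GHMT DMSO cells and 7.13%, 18.4% and 29.0% in GHMT untreated cells. The lower share with DMSO at days 7 and 21 was not a lower resident sum. That sum averaged 51.9 TPM with DMSO and 39.9 TPM without at day 7, and 67.3 and 65.4 TPM at day 21. Tbx5, the rest of the family's sum, averaged 374.6 TPM with DMSO and 188.5 TPM without at day 7, and 269 and 162.7 TPM at day 21. At day 2 the resident MEF2 genes held 7.14% with DMSO and 8.08% without, and the resident GATA genes 6.49% and 8.29%. Tbx20 accounted for a median of 11.7% (0.986 to 30.5%) of the family in GHMT libraries. Tbx3 and Tbx2 held medians of 34.4% and 19.8% in uninfected libraries, where Tbx20 held 0.965%. In GENCODE M21 transcripts, 1 of the 1459 words of 31 bases in Mef2b was shared with Mef2c and none was shared by any other member with its transduced relative. The authors' own annotation may differ from it.

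**Figure D3:**
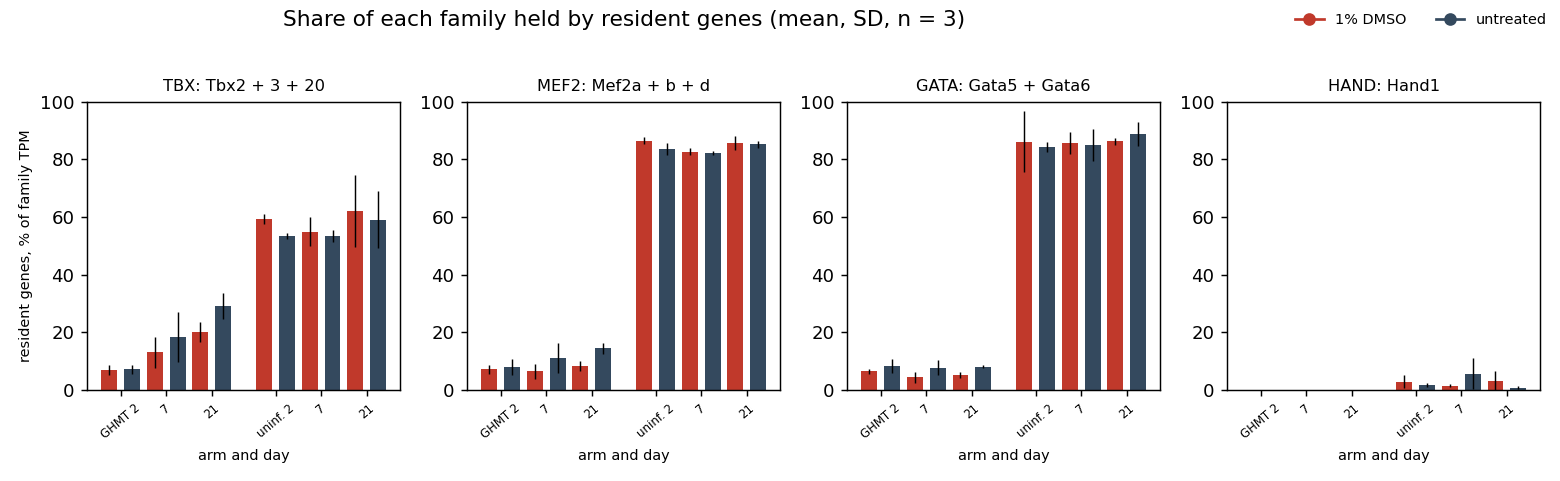
Percentage of each family's summed TPM held by its resident genes (vertical axes, 0 to 100%) by arm and day, as means with SD (n = 3), DMSO red and untreated dark. Resident T-box genes held 6.95% to 20.1% with DMSO and 7.13% to 29.0% without in the GHMT arm, and the GATA and MEF2 residents held most of their family's sum in uninfected cells. A share also depends on the transduced gene in the sum. At day 21 the resident T-box genes of GHMT cells averaged 67.3 TPM with DMSO and 65.4 TPM without.

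The partners and targets of these families were read from lists chosen with earlier results of these data known, and they are described by counts. Of 16 tested MEF2 coregulators, 12 rose between day 2 and day 21 in GHMT DMSO cells and 4 in GHMT untreated cells, none fell, and the list medians were 0.61 and 0.38 beside 0.09 and 0.20 for all genes. Over all genes tested, 21.4% rose and 16.2% fell over these days with DMSO, and 17.9% rose and 6.7% fell without. The 4 of 16 without DMSO is near that background. Without the 3 libraries that stood apart, 9 coregulators rose with DMSO and 6 without, where 17.6% and 20.6% of genes did. Myocd, the myocardin coactivator of smooth and cardiac muscle genes, rose by 2.95 with DMSO (adjusted p = 3.76e-05). Hdac4, a class IIa deacetylase that binds MEF2 proteins, rose by 1.03 with DMSO and 0.75 without. In uninfected cells 1 of 15 fell with DMSO and 1 of 15 rose without. There 4.86% of all genes rose and 10.2% fell with DMSO, and 5.16% rose and 5.84% fell without.

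Among 6 tested GATA cofactors, 3 rose over the same days with DMSO and 1 without, among them Lmcd1, a LIM protein that binds GATA6, by 1.49 and 1.77, and Zfpm1 (FOG1), by 1.88 with DMSO. Of 6 tested T-box partners, 2 rose and 2 fell with DMSO and 2 rose and 1 fell without. Casz1, a zinc-finger partner of TBX5, rose by 1.98 and 1.21, and Hdac2 fell by 0.83 and 0.51. Of 7 HAND partners, 1 rose and 3 fell with DMSO and none passed without, and of 10 other GATA, T-box and Twist relatives tested, out of 18 listed, Gata2 alone rose with DMSO, by 0.70, and none passed without. Of 13 known cardiac targets of these families, 7 rose and 1 fell with DMSO and 7 rose without, with list medians of 2.08 and 1.69. In uninfected cells over the same days, 2 of 6 GATA cofactors rose and 1 fell, and 3 of 7 HAND partners rose and 1 fell, in each treatment. Lmcd1 was among those that rose in uninfected cells, by 1.42 with DMSO and 1.79 without, so its rise was not particular to GHMT cells. There 1 of 8 T-box partners fell with DMSO and none passed without, 2 of 10 other relatives fell in each treatment, and 1 of 6 cardiac targets rose in each. These counts stand beside the shares of all genes given above. Without the 3 libraries that stood apart, Gata2 was not called with DMSO (adjusted p = 0.101), 2 GATA cofactors rose and 1 fell in GHMT untreated cells, and 7 cardiac targets rose with DMSO and 6 without. In GHMT DMSO cells 3 further calls were lost by limma's test. They were Tcf4, the HAND partner that rose (adjusted p = 0.0505), Tle1, a T-box partner that fell (0.135), and Has2, the target that fell (0.176). Ldb1, the GATA cofactor that fell in uninfected cells, was then not called in untreated cells (0.0816).

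With DMSO against no addition in GHMT cells, few genes of these lists were called. At day 21 Casz1 averaged 8.39 TPM in GHMT DMSO cells and 4.06 TPM in GHMT untreated cells, a rise of 0.89 (adjusted p = 0.0226), and Vgll4, a transcription cofactor, 52.2 and 32.9 TPM, a rise of 0.64 (adjusted p = 0.0149). Id4, an inhibitor of basic helix-loop-helix factors, averaged 1.94 TPM with DMSO and 6.84 TPM without, a fall of 1.32 on the log2 scale (adjusted p = 0.0429). These were the only calls in the 5 lists of relatives and partners at that day, and at days 2 and 7 there were none. At day 21, 4.59% of all genes were called, and without the 3 libraries that stood apart none of the 3 was, with adjusted p of 0.115 for Casz1, 0.0785 for Vgll4 and 0.121 for Id4. Among the cardiac targets, Myh6 rose by 2.51 at day 7 (320 TPM with DMSO against 55.7 TPM without, adjusted p = 0.0104) and Nppa, the atrial natriuretic peptide, by 3.63 (122 against 9.81 TPM, adjusted p = 0.0289). At day 21, 3 of 13 targets rose, among them Myh6 by 2.04 and Nppb, the B-type natriuretic peptide, by 2.37, and Has2, a hyaluronan synthase, fell by 1.54. Without those libraries 1 of the 13 targets was called at day 7 and 1 at day 21, with an adjusted p of 0.095 for Nppa at day 7, 0.114 for Nppb and 0.172 for Has2. In uninfected cells with DMSO, Lmcd1 fell by 0.78 at day 7 and by 1.01 at day 21 on the log2 scale, Hdac3 rose by 0.28 at day 7, and Hspb7, a small heat shock protein of muscle, fell by 0.74 and 1.48 at days 7 and 21.

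For each member with a mean of at least 5 TPM, the genes of most similar pattern were taken from 10403 genes by Pearson's correlation of log2(TPM + 1) over the 36 libraries, after each table had been centred. These are descriptions over libraries that share arm, day and treatment. Tbx20 was closest to Actc1 (cardiac actin, 0.97), Mical2 (0.96) and Tnni3 (cardiac troponin I, 0.96). Over GHMT libraries alone the values were 0.98, 0.98 and 0.96, and over uninfected libraries, where Tbx20 was under 0.3 TPM, they were -0.14, 0.18 and -0.10. Mef2d was closest to Mnt (0.96), Pacs2 (0.96) and Kank2 (0.95), and Mef2a to Ankrd28 (0.83), Dubr (0.83) and Pank3 (0.82). The genes most like Tbx3 included Ap2a1 (0.85) and Ski (0.83). Gata6 had the loosest neighbours, Cxadr (0.69), Hnrnpa0 (0.67) and H2afj (0.66).

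Markers of other cell types moved over the same libraries in which Tbx20 and Mef2d rose, and their part in these changes was not tested. All 10 cardiomyocyte markers rose between day 2 and day 21 in GHMT cells with DMSO and without. Of 10 tested epicardial and mesothelial markers, 5 rose and 2 fell with DMSO and 4 rose and 1 fell without. Over all genes tested, 21.4% rose and 16.2% fell over these days with DMSO, and 17.9% rose and 6.7% fell without. The counts of epicardial and mesothelial markers that fell were near those shares. The 11 listed summed to between 282 and 365 TPM in GHMT DMSO and 379 and 687 TPM in GHMT untreated cells at day 21. At day 2 that sum was 120 to 179 TPM with DMSO and 120 to 162 TPM without. It was also higher at day 21 in uninfected DMSO cells, at 304 to 410 TPM against 62 to 145 TPM at day 2. In uninfected untreated cells it was 131 to 196 TPM at day 21 and 80 to 162 TPM at day 2, with an overlap. The 7 smooth muscle markers summed to between 986 and 1928 TPM in GHMT DMSO and 1648 and 3199 TPM in GHMT untreated cells at day 21, against 487 to 733 TPM and 893 to 1141 TPM at day 2, with 3 and 2 markers called as higher, or 2 and 4 without the 3 libraries that stood apart. Endothelial markers (8) summed to between 12.9 and 28.8 TPM over all libraries, and none of 8 macrophage markers was called over these days in GHMT cells. In uninfected cells Myh6 was at 0 in all 3 untreated libraries of day 2, Actc1 in all 3 DMSO libraries of day 21, and Actc1 and Myl7 in all 3 untreated libraries of day 21.

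**Figure D4:**
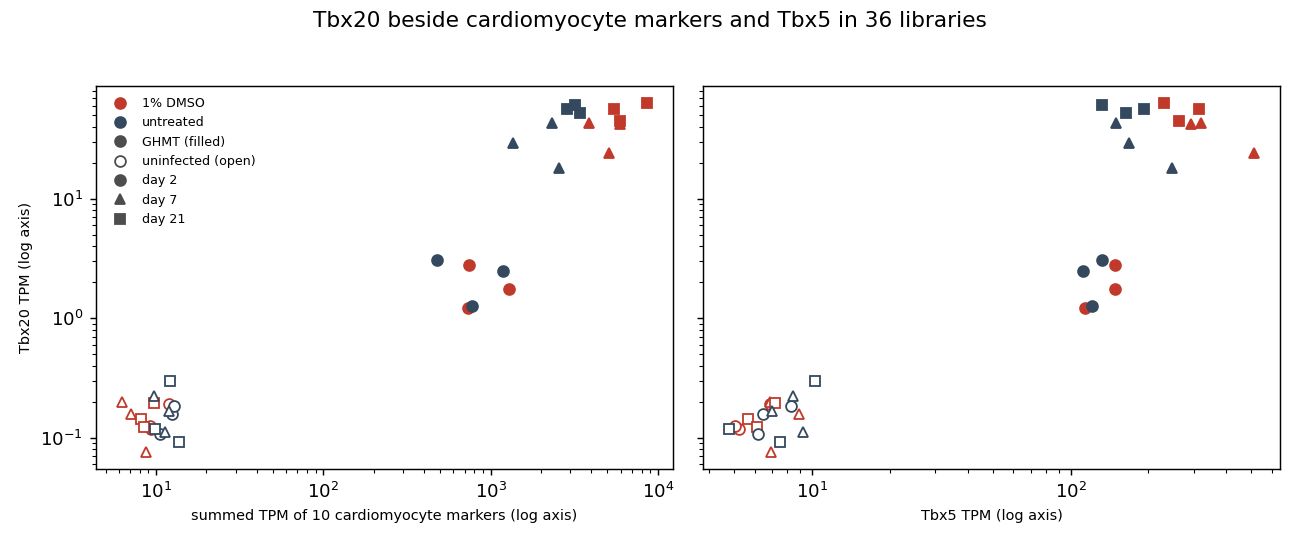
Tbx20 TPM (vertical log axis) against the summed TPM of 10 cardiomyocyte markers and against Tbx5 TPM (horizontal log axes) in 36 libraries, with DMSO red, untreated dark, GHMT filled, uninfected open, and the symbol giving the day. At day 7 and day 21 the GHMT DMSO libraries lie to the right of the untreated ones on the marker axis, at 3900 TPM or more and 5486 TPM or more, with overlapping Tbx20 levels.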

How the data were processed

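RNA was measured by sequencing in 36 libraries, 3 in each of 12 groups. Per the labels' protocols, RNA was extracted with TRIzol and Direct-zol columns and made into TruSeq libraries. The deposited values are TPM per gene, and the submitters' processing notes name Trimmomatic, FastQC and kallisto, so reads were assigned to transcripts and summed to genes by the authors. For genome build, annotation and strand setting the sources used here give nothing. TPM is relative to each library's own total, so an abundant RNA lowers every other value. The RNA 7SL took 13.2 to 25.4% of TPM, and protein-coding genes 50.6 to 65.3%. Of 50698 entries per table, 97 named no gene (0.248 to 4.81% of TPM) and were left out, and entries of the same symbol were summed. Of 50601 gene entries, 50377 matched GENCODE M21.

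TPM were taken as log2(TPM + 1). A gene entered the test where 3 or more libraries of its table had 1 TPM or more. Tests were run with limma 3.58.1 (R 4.3.3) with a mean-variance trend, two-sided, and adjusted by Benjamini-Hochberg within each comparison at 0.05. Between arms, members below that floor in either arm were not tested. The fits had 12 residual degrees of freedom per arm and 24 over both. All 9 members are named. One neighbour by pattern is not reported here. Neighbours by pattern and list examples followed rules written down with earlier results of these data known, as were the members, the gene lists and the markers. Of each list, examples were genes called in a direction with the lowest adjusted p, at most 2 per direction. That rule was written for the DMSO comparisons and was extended to the comparisons of times after the data were seen. Same-numbered libraries deviated together in the GHMT arm at day 2 (correlations of 0.194 to 0.345) and day 7 (0.183 to 0.25), which is a reading of the data, not of the labels. The fitting code was tested on simulated data. Alternatives covered pseudocount, filter, scaling, trend, a replicate block and single libraries left out, and list counts without the 3 libraries that stood apart were added after the data were seen.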

Additional observations from a re-analysis of the deposited data

Results flagged for a closer look

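For Mef2d the change from day 2 to day 21 differed between the arms by a test of that difference, in limma's fit over the 36 libraries. It was larger in GHMT than in uninfected cells by 1.49 in log2 with DMSO and by 1.09 without. This comparison was added after the data had been seen. In it 23.7% of genes were called with DMSO, 15.5% in that direction, and 14.1% without, 10.6% in that direction. The untreated call was lost without GHMT untreated day 2 replicate 1, and also without uninfected untreated day 21 replicate 1. The Mef2d change in uninfected cells was -0.25 with DMSO (adjusted p = 0.423) and -0.09 without (adjusted p = 0.82), and neither passed.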

How the results depend on the processing

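Over 3936 combinations of member, comparison and alternative, covering 124 results of which 9 were called, none reversed its direction once called, 2 lost the call, 13 gained one and 3921 kept their side of the threshold. The 2 lost calls are those of Mef2d untreated between arms given above. Of the combinations not called either way, 113 of 3637 turned sign. With a replicate block within each day, 1 member was called with DMSO in GHMT cells (Tbx2 at day 7) against 0 without. In uninfected cells over time, 1 call appeared with median ratio scaling and 2 with rescaling to protein-coding genes, all Mef2a, against 0. Leaving out single libraries gave 7 to 9 calls over time in GHMT cells, 1 to 2 between arms over time, 0 to 0 over time in uninfected cells, and 0 to 0 for DMSO in GHMT cells, for DMSO in uninfected cells and for its difference between arms. The replicate block by number within an arm gave 8 calls over time in GHMT cells, adding Tbx20 between days 7 and 21 untreated, 2 between arms over time, and 0 for the other 4 families of comparisons. Mef2d between days 2 and 7 untreated was also called at a 5 TPM filter (adjusted p = 0.0423), without the 3 libraries that stood apart (0.0341), and without GHMT untreated day 2 replicate 3 (0.0202), GHMT DMSO day 7 replicate 1 (0.0481), day 21 replicate 1 (0.0341) or day 21 replicate 3 (0.0447). Same-numbered libraries correlated at 0.0716 to 0.192 in the GHMT arm at day 21. In the uninfected arm they correlated at 0.091 to 0.204, 0.0769 to 0.15 and 0.0248 to 0.249 at days 2, 7 and 21. The main tests did not take same-numbered libraries as pairs in either arm at any day. Median ratio scaling moved the median of all genes by -0.27 and -0.25 in the comparison of times between arms, untreated and DMSO. Without read counts, the precision of low TPM values is unknown.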
